A study of Mus musculus with 8 samples.

Results

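The genes described here encode the contractile unit of heart muscle and its anchorage: 41 genes of the sarcomere, the Z-disc and the structures that tie them to the cell membrane. They were chosen by name as a gene group, and a gene with several probe sets was read from its brightest one on average. All 41 were measured under a single gene symbol, among 19938 genes in all. The tissue was myocardium of 8 to 10 week old males of a strain that the labels write as CH3. All had 45 minutes of ligation of the left anterior descending artery and then 2 hours of reperfusion, so the placebo hearts were injured too and no uninjured heart is compared here. One group of 4, called treated here, had received recombinant DJ-1 protein 1 hour before the ligation, and the placebo group of 4 had received phosphate-buffered saline (PBS) at the same time. The comparison asked which transcripts differ in reperfused myocardium when DJ-1, a redox-sensitive protein encoded by Park7, is given beforehand.

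In a sarcomere, myosin heads of the thick filament pull on actin of the thin filament when calcium binds troponin and tropomyosin moves aside. Titin spans from the Z-disc to the M-band and keeps the thick filament centred, and the Z-disc, built on alpha-actinin, anchors the thin filaments of neighbouring sarcomeres and senses stretch. Several of these proteins come in isoforms: the adult mouse ventricle mainly uses the alpha heavy chain Myh6, cardiac actin Actc1, cardiac troponin I Tnni3 and the ventricular light chains Myl2 and Myl3, while the beta heavy chain Myh7, skeletal actin Acta1 and slow troponin I Tnni1 belong to the fetal or stressed heart, and Myl4 and Myl7 to the atria.

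Values are log2 expression levels, so a difference of 1 is a doubling of the signal. Medians of the 8 arrays lay between 5.25 and 5.35, and correlations between arrays ran from 0.978 to 0.987. DJ-1 replicates 3 and 4 had the highest scores on the first principal component of all genes, 0.14 and 0.17 against -0.11 to 0.04. That component held 26.3% of the variance. The cardiomyocyte identity of the tissue was checked with 12 markers outside the group, among them Ryr2, Pln and Atp2a2: all 12 lay above the background level, and their summed signal ran from 15.92 to 16.02 in placebo and from 15.91 to 16.00 in treated hearts on the log2 scale. That sum follows mainly its brightest genes, such as Pln (13.52 to 13.66), and whether signals that high are compressed was not tested. In bulk tissue, fewer cardiomyocytes and less RNA per cardiomyocyte cannot be told apart. Neutrophil markers differed widely between hearts, with a summed signal from 8.54 to 10.84 in placebo and from 9.82 to 11.43 in treated hearts, and the mean of all 10 was higher in the latter. Of the 10, 0 passed a limma adjusted p of 0.05, as did 0% of all genes. Only Lcn2 had an unadjusted p under 0.05 (limma adjusted p = 0.824), a level that 5.99% of all genes reached. The mean deviation of the list ran from -1.43 to 0.88 in placebo and from -0.55 to 1.21 in treated hearts. The part of these markers in the results below was not tested.

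No member passed the test of a difference between the groups. By limma, 0 of the 41 passed an adjusted p of 0.05, where 0% of all genes passed. Likewise 0 had an unadjusted p under 0.05, a level that 5.99% of all genes reached, and none (0) had groups without overlap, which was the case for 3.22% of all genes. The adjusted p of the members ran from 0.824 to 0.996. The mean was higher in treated hearts for 14 members and lower for 27, and the median difference was -0.03, against 0.01 over all genes. All members lay above background, as defined below. Of the 13693 genes above it, 6223 had a higher and 7470 a lower mean, with a median difference of -0.01. The differences ran from -0.32 for Myl7 to 0.34 for Acta1. For 33 of the 41 members the 95% confidence interval lay wholly between -0.5 and 0.5, which is 1.41-fold in either direction. That is 80.5% of the members, against 82.9% of all genes and 87.1% of the genes above background. For the other 8 (Ttn, Myh7, Synpo2l, Acta1, Xirp1, Myl7, Myl4 and Flnc) larger differences lay within the interval.

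**Figure D1:**
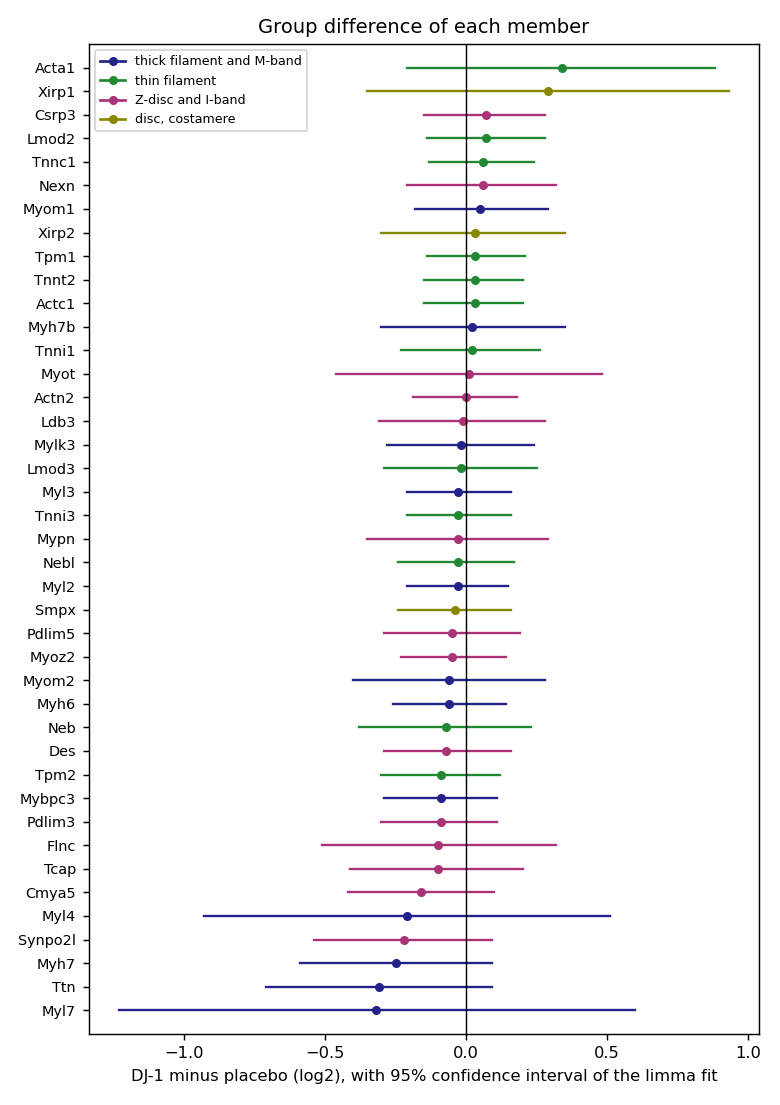
Difference of group means, treated minus placebo in log2 units, for each of the 41 members (points) with the 95% confidence interval of the limma fit (lines), coloured by role. Every interval includes 0, and the widest are those of Myl7 (-1.23 to 0.60), Myl4 (-0.93 to 0.51) and Xirp1 (-0.35 to 0.93).

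The 12 thick filament and M-band genes had a median difference of -0.06, with 2 higher and 10 lower means in treated hearts. The titin gene Ttn had the smallest p of all members. In placebo replicates 1 to 4 it stood at 11.23, 11.21, 11.64 and 11.85, and at 10.83, 11.26, 11.59 and 11.02 in treated replicates 1 to 4. The lowest 2 values were treated hearts and the highest 2 placebo hearts, but DJ-1 replicates 2 and 3 lay above placebo replicates 1 and 2, so the groups overlapped. The difference was -0.31 (SE 0.18, 95% confidence interval -0.71 to 0.09, limma adjusted p = 0.824). Without DJ-1 replicate 3 it was -0.44 (SE 0.17), still with an adjusted p of 0.94. Over all fits with 1 array left out it ran from -0.44 to -0.18.

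The beta heavy chain gene Myh7 stood at 8.57, 8.21, 8.03 and 8.36 in placebo and at 7.95, 8.46, 7.96 and 7.80 in treated replicates 1 to 4. Of the treated hearts, 3 lay below every placebo heart and replicate 2 lay above all placebo hearts but 1. The difference was -0.25 (SE 0.16, 95% confidence interval -0.59 to 0.09, limma adjusted p = 0.83). Without DJ-1 replicate 2 the difference was -0.39 (SE 0.13), with a limma adjusted p of 0.651. The groups then did not overlap, which followed from leaving out the only treated heart that overlapped the placebo hearts. That heart was the one most opposed to the difference, which ran from -0.39 to -0.15 over all fits with 1 array left out.

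The adult heavy chain gene Myh6 was far steadier, at 12.93, 12.85, 12.87 and 12.99 in placebo and 12.72, 12.86, 12.97 and 12.84 in treated hearts. Its range over the 8 arrays was 0.27, and its difference was -0.06 (SE 0.09, 95% confidence interval -0.26 to 0.14). The third heavy chain gene, Myh7b, had means of 7.50 ± 0.26 in placebo and 7.52 ± 0.23 in treated hearts (SD, n = 4 each). Its highest value, 7.83, was that of DJ-1 replicate 3.

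Mybpc3 encodes cardiac myosin-binding protein C, which tethers and brakes the myosin heads. Its levels were 12.11, 11.96, 12.07 and 12.19 in placebo and 11.97, 11.96, 12.10 and 11.92 in treated hearts, a difference of -0.09 (SE 0.09, limma adjusted p = 0.879). The DJ-1 heart with the highest value was again replicate 3. Mylk3, the cardiac kinase of the regulatory light chain, had means of 9.84 ± 0.20 and 9.82 ± 0.15 (SD, n = 4 each), with placebo replicate 4 at 10.13 and the other placebo hearts between 9.73 and 9.77. The M-band genes Myom1 and Myom2, whose myomesins cross-link thick filaments, had differences of 0.05 (SE 0.11) and -0.06 (SE 0.16). Myom2 ran from 10.37 in DJ-1 replicate 4 to 11.11 in placebo replicate 4.

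**Figure D2:**
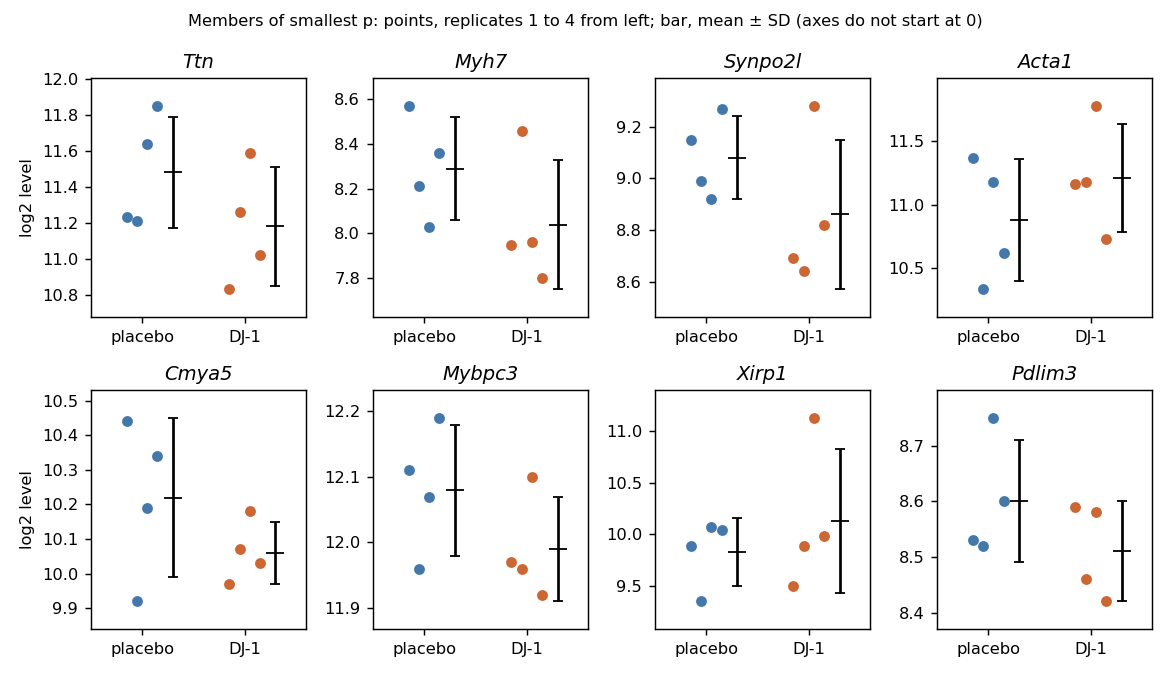
Levels (log2) of the 8 members of smallest p in each array: points are replicates 1 to 4 from left to right, and the bar is the group mean ± SD. The groups overlap in all 8 panels, and DJ-1 replicate 3 is the highest DJ-1 heart for Ttn, Synpo2l, Acta1, Cmya5, Mybpc3 and Xirp1.

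The 12 thin filament genes had a median difference of 0.02, with 7 higher and 5 lower means in treated hearts. The core adult genes varied little. Actc1 lay between 13.82 and 13.92 over all 8 arrays, Tnnt2 (troponin T, which binds tropomyosin) between 13.57 and 13.68, and Tpm1 (alpha-tropomyosin) between 12.68 and 12.81. Their differences were each 0.03 (SE 0.08), with intervals within -0.15 to 0.21, and with cyclic loess normalization they were -0.02, -0.02 and 0.00. Tnnc1, the calcium sensor troponin C, had means of 12.89 ± 0.04 in placebo and 12.95 ± 0.07 in treated hearts (SD, n = 4 each), and Tnni3, the inhibitory troponin I, had 13.69 ± 0.07 and 13.66 ± 0.06. These probe sets lie near the highest value in the table, 14.36, and whether their signals are compressed there was not tested.

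Skeletal alpha-actin, Acta1, was the thin filament gene with the widest spread. It stood at 11.37, 10.33, 11.18 and 10.62 in placebo and at 11.16, 11.18, 11.78 and 10.73 in treated replicates 1 to 4. The 2 lowest hearts were placebo replicates 2 and 4 and the highest was DJ-1 replicate 3, with the others mixed. The difference of 0.34 (SE 0.25, 95% confidence interval -0.21 to 0.88, limma adjusted p = 0.846) was smaller than the SD within either group, 0.48 and 0.43. Without DJ-1 replicate 3 it was 0.15.

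Of the thin filament length regulators, Lmod2 (leiomodin, which extends filaments at the pointed end) differed by 0.07 (SE 0.10) and Lmod3 by -0.02 (SE 0.12). Nebl, which encodes the cardiac nebulin relative nebulette, had means of 9.63 ± 0.09 and 9.60 ± 0.10 (SD, n = 4 each). It was the only member with a further probe set, which lay between 6.57 and 6.89 over the arrays. Neb, the giant ruler protein of skeletal muscle thin filaments, was close to background, with means of 5.59 ± 0.28 and 5.52 ± 0.14 (SD, n = 4 each).

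Background was taken from 1027 olfactory receptor genes, whose 95th percentile was 4.74. The mean of every member (41) lay above that level, but not by the same margin. Myl7 lay 0.50, Tnni1 0.64, Neb 0.81 and Tpm2 1.78 above it on the log2 scale, the smallest margins of the 41. Among the other fetal, atrial or skeletal partners Myh7 lay 3.43, Myl4 4.26 and Acta1 6.30 above it. The adult ventricular genes Myh6, Actc1, Tnni3, Tpm1, Myl2 and Myl3 lay between 8.02 (Tpm1) and 9.12 (Actc1) above it, and Nebl, the cardiac relative of Neb, 4.88. Probe sets differ in how strongly they bind, so these margins show which isoforms were measured clearly and are not a ratio of molecules. The order of each pair was the same in all 8 hearts, with the adult cardiac partner giving the brighter signal.

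**Figure D3:**
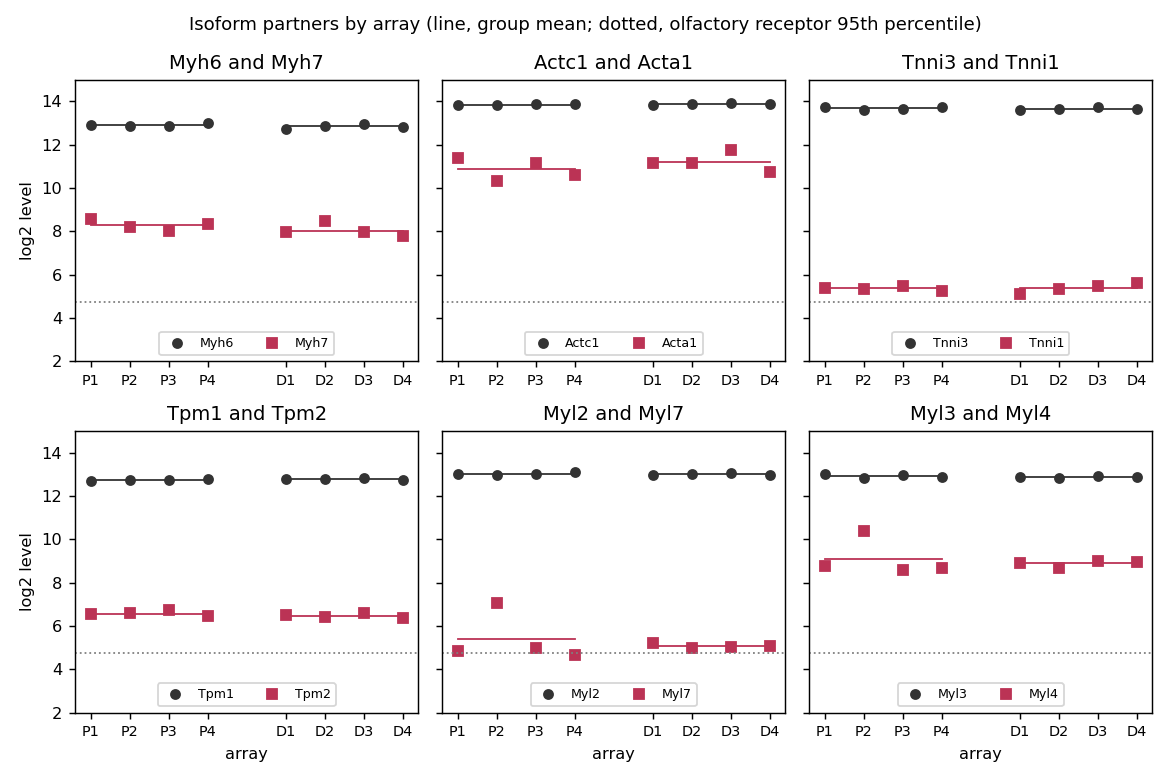
Log2 levels of 6 isoform pairs in each array, with the adult ventricular partner as circles, the fetal, atrial or slow partner as squares, horizontal lines at the group means, and a dotted line at 4.74, the 95th percentile of the olfactory receptor genes. Levels of different genes are not on a common molar scale. The circles hardly vary between hearts, whereas Acta1, Myh7, Myl7 and Myl4 do.

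A shift between isoforms can be read without comparing probe sets directly where signal is proportional to RNA. The binding strength of each then cancels when the within-array log2 ratio is compared between groups. That proportion was not tested for partners near background (Myl7, Tnni1 and Neb) or near the highest value in the table. Over 10 such ratios, none (0) passed an adjusted p of 0.05 by the two-sided exact permutation test over the 8 arrays with Benjamini-Hochberg adjustment. The smallest p this design allows is 0.0286, so a single ratio with fully separated groups would have had an adjusted p of 0.286 and at least 6 such ratios were needed to pass. The count of 0 therefore says nothing on a shift in a single pair, and the ratios are given as values. For Myh7 against Myh6 the log2 ratio was -4.62 ± 0.20 in placebo and -4.81 ± 0.30 in treated hearts (SD, n = 4 each), a difference of -0.19 (exact permutation p = 0.371, adjusted p = 0.914). Within the placebo group it ran from -4.84 to -4.36, and in the DJ-1 group from -5.05 to -4.40. In the RefSeq gene table no protein-coding gene (0) lies between these neighbouring heavy chain genes.

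For Acta1 against Actc1 the ratio ran from -3.49 to -2.46 in placebo and from -3.16 to -2.14 in treated hearts. The difference was 0.31 (exact permutation p = 0.371, adjusted p = 0.914), and nearly all of its spread came from Acta1, since Actc1 varied by 0.10 over the arrays and Acta1 by 1.45. For Tpm2 against Tpm1 the difference was -0.12, with the smallest raw value of the family (exact permutation p = 0.143, adjusted p = 0.914). Tpm2, beta-tropomyosin, is also made by smooth muscle, and the summed signal of 12 smooth muscle and pericyte markers ran from 13.01 to 13.20 in placebo and from 13.05 to 13.19 in treated hearts. Of these markers 8 had a lower mean in treated hearts and 4 a higher one: Acta2 (0.21), Cnn1 (0.29), Lmod1 (0.17) and Myl9 (0.08). An unadjusted p under 0.05 was reached by 2 of the 12, and by 5.99% of all genes. The 2 were Kcnj8 (-0.44) and Pdgfrb (-0.30), each with a limma adjusted p of 0.824. The part of the 12 markers in the Tpm2 value was not tested. For Tnni1 against Tnni3 the difference was 0.04 (exact permutation p = 0.714), with ranges of -8.48 to -8.14 and -8.48 to -8.06.

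The promoters of the actin pair are shown because their transcripts varied so unequally. They are the 250 bases before the annotated start, 5′ to 3′ on the gene's strand, from RefSeq (GRCm38.p6): Acta1 at chr8:123894776-123895025 and Actc1 at chr2:114052876-114053125, both on the minus strand. Capitals mark TATAAA and CArG boxes, the binding element of serum response factor.
Acta1: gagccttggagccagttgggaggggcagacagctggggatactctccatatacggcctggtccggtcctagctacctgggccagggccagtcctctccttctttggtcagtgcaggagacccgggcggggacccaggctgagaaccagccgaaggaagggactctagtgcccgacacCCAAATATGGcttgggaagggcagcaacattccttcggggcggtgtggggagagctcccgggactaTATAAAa
Actc1: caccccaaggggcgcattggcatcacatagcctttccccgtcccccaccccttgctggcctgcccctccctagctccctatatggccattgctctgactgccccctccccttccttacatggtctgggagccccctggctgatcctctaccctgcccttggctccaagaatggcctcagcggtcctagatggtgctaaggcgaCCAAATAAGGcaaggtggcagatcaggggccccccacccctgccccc
The window of each actin gene holds 1 CArG box, at -73 to -64 in Acta1 and at -47 to -38 in Actc1, counted back from -1 at the base before the start, and Acta1 also has TATAAA at -7 to -2.

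Both strands were searched for 5 motifs in the windows of 34 member genes (47 windows, since some genes have several starts), beside 32851 windows of all genes. A CArG box was found in 17.0% of the member windows, in 7 genes (Nebl, Actc1, Acta1, Myl3, Myl7, Ldb3 and Myom1), and in 1.47% of all windows. A MEF2 site was found in 12.8% (5 genes: Xirp2, Ttn, Mybpc3, Myoz2 and Synpo2l) and 2.92%. The TEAD element CATTCC was found in 27.7% and 12.6%, the E-box CANNTG in 76.6% and 66.2%, and TATAAA in 8.51% and 12.4%. Windows of the same gene can overlap, a CArG box can overlap a MEF2 site, and a match describes letters, not binding.

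The atrial light chains held the widest spread of all members, and 1 heart made it. Myl7, the atrial regulatory light chain, stood at 4.84, 7.08, 5.0 and 4.68 in placebo and at 5.22, 4.98, 5.03 and 5.10 in treated replicates 1 to 4. Placebo replicate 4, at 4.68, was below the background level of 4.74. Placebo replicate 2 lay 1.86 above the next array, the largest such gap of any of the 19938 genes on that array. Myl4, the atrial essential light chain, stood at 8.76, 10.40, 8.59 and 8.67 in placebo and at 8.92, 8.70, 9.01 and 8.96 in treated hearts, and its gap of 1.39 on the same array was the third largest. Cyp2e1, a cytochrome P450 gene named here after its value was seen, came between them with 1.43.

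Over the arrays other than placebo replicate 2, Myl7 ran from 4.68 to 5.22 and Myl4 from 8.59 to 9.01. With all arrays their differences were -0.32 (SE 0.42) and -0.21 (SE 0.33). Without placebo replicate 2 they were 0.24 and 0.22, that is with the sign turned, and neither passed (limma adjusted p = 0.826 for each). The ratio of Myl7 to Myl2 differed by -0.29 with all arrays and by 0.29 without that heart, and that of Myl4 to Myl3 by -0.18 and 0.28.

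The other atrial markers went both ways in that heart. In placebo replicate 2 the mean deviation of 8 atrial markers was -0.04, and 1 of the 8, Dkk3, was highest there, at 5.10, with 4.35 to 4.90 in the others. Clu was lowest there, at 9.76, with 9.91 to 10.35 in the others. Atrial natriuretic peptide, Nppa, was at 11.39 in that heart and between 10.98 and 11.93 in the others. Sarcolipin, Sln, at 4.12, and Bmp10, at 3.37, were below background there, as they were in every heart (at most 4.46 and 4.07). The summed signal of the list ran from 11.81 to 12.37 in placebo and from 11.97 to 12.49 in treated hearts. Nppa and Clu gave the brightest signals of the list, so the sum mainly follows them. The part of atrial tissue in the values of Myl7 and Myl4 was not tested. The ventricular partners Myl2 and Myl3 stood at 12.99 and 12.83 in placebo replicate 2, within 0.17 of every other heart.

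**Figure D4:**
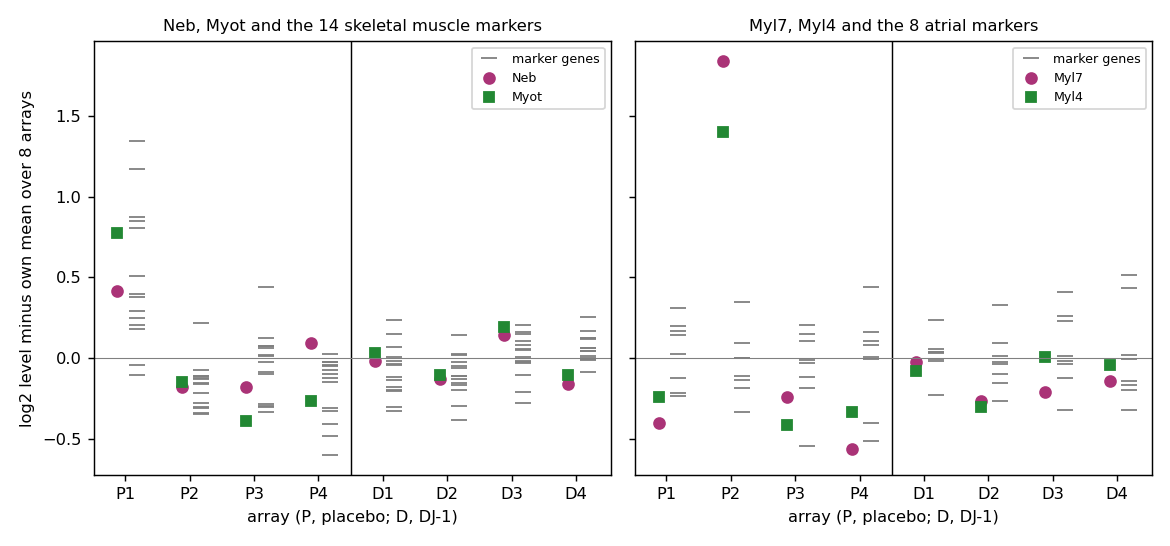
Deviation of each gene from its own mean over 8 arrays (log2): coloured points are Neb and Myot beside 14 skeletal muscle markers (left, grey bars) and Myl7 and Myl4 beside 8 atrial markers (right, grey bars). Neb, Myot and most skeletal markers are highest in placebo replicate 1, while Myl7 and Myl4 lie above the atrial markers in placebo replicate 2.

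The upstream windows of the atrial light chain genes are given because both transcripts stood apart in that heart. Both genes lie on chromosome 11: Myl7 at chr11:5898783-5899032 on the minus strand and Myl4 at chr11:104550413-104550662 on the plus strand (RefSeq, GRCm38.p6). Capitals mark TATAAA, MEF2 sites and CArG boxes.
Myl7: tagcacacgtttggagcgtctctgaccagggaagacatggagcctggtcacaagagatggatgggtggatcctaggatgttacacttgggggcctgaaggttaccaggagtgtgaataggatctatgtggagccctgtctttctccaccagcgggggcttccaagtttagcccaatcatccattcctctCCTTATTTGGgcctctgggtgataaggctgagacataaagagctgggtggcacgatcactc
Myl4: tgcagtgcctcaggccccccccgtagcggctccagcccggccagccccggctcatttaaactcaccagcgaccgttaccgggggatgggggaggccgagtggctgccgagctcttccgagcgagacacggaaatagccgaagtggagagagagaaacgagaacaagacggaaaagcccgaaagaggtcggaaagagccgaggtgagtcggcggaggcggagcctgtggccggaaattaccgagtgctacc
The Myl7 window holds 1 CArG box, at -61 to -52, and the Myl4 window none of the 5 motifs (0).

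The 14 Z-disc and I-band genes had a median difference of -0.05, with 3 higher and 11 lower means in treated hearts. Synpo2l, an actin-associated Z-disc protein related to myopodin, stood at 9.15, 8.99, 8.92 and 9.27 in placebo and at 8.69, 8.64, 9.28 and 8.82 in treated replicates 1 to 4. Of the treated hearts, 3 lay below all placebo hearts and replicate 3 lay above them all. The difference was -0.22 (SE 0.14, 95% confidence interval -0.54 to 0.09, limma adjusted p = 0.832), and without DJ-1 replicate 3 it was -0.37 (SE 0.12), with an adjusted p of 0.94. Leaving out each array in turn gave -0.37 to -0.15.

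Cmya5, or myospryn, a large scaffold that binds desmin and alpha-actinin, stood at 10.44, 9.92, 10.19 and 10.34 in placebo and at 9.97, 10.07, 10.18 and 10.03 in treated hearts. Placebo replicate 2 was the lowest of all hearts and the other placebo hearts were the 3 highest. The difference was -0.16 (SE 0.12, limma adjusted p = 0.846), and -0.26 (SE 0.11, adjusted p = 0.826) without placebo replicate 2. Leaving out each array in turn gave -0.26 to -0.09. Pdlim3, an alpha-actinin-associated LIM protein, ran from 8.52 to 8.75 in placebo and from 8.42 to 8.59 in treated hearts, a difference of -0.09 (SE 0.09, limma adjusted p = 0.884). Its relative Pdlim5 differed by -0.05 (SE 0.11).

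The Z-disc backbone gene Actn2, alpha-actinin, had the same mean of 12.52 in both groups, with SDs of 0.04 and 0.07. Myoz2, which links alpha-actinin to calcineurin, had 12.63 ± 0.05 in placebo and 12.58 ± 0.04 in treated hearts, and Ldb3, which protects the Z-disc under load, had 10.95 ± 0.20 and 10.94 ± 0.22 (SD, n = 4 each). Desmin, Des, the intermediate filament around the Z-disc, differed by -0.07 (SE 0.10). The stretch-associated genes Csrp3 (muscle LIM protein) and Tcap (telethonin, the cap of titin) differed by 0.07 (SE 0.10) and -0.10 (SE 0.14), and the actin-binding Nexn and the titin- and nebulin-binding Mypn by 0.06 (SE 0.12) and -0.03 (SE 0.15).

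Flnc, filamin C, cross-links actin at the Z-disc and at the membrane and is recruited to damaged myofibrils. It stood at 10.14, 9.56, 9.91 and 9.88 in placebo and at 9.54, 9.73, 10.37 and 9.46 in treated hearts. The highest value was that of DJ-1 replicate 3, and the 2 lowest those of DJ-1 replicates 4 and 1. The difference was -0.10 (SE 0.19).

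Myot, myotilin, a Z-disc protein of skeletal and heart muscle, stood at 9.95, 9.03, 8.79 and 8.91 in placebo and at 9.21, 9.07, 9.37 and 9.07 in treated hearts. Placebo replicate 1 lay 0.58 above the next heart, and the other placebo hearts lay below all treated hearts. The difference was 0.01 (SE 0.21) with all arrays and 0.27 (SE 0.11, limma adjusted p = 0.868) without placebo replicate 1.

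Skeletal muscle genes were highest in that same heart. Of 14 skeletal markers, 10 had their highest value in placebo replicate 1, and their mean deviation there was 0.51, against -0.19 to 0.07 in the other hearts. Atp2a1, the calcium pump of fast skeletal fibres, was at 6.99 there and at most 5.64 elsewhere, and the fast myosin gene Myh1 at 5.85 and at most 4.74. The summed signal of the list ran from 9.90 to 10.55 in placebo and from 9.98 to 10.20 in treated hearts, and 8 of the 14 had a mean above background. The myogenic regulators Myod1 and Myog, among the defining markers, were at 4.92 and 4.86 there, each below its highest value, 5.17 in DJ-1 replicate 3 and 5.12 in placebo replicate 3. Neb was also highest in placebo replicate 1, at 5.97, with 5.38 to 5.70 in the others. The part of these markers in the values of Myot and Neb was not tested.

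The last 3 members belong to the intercalated disc and costamere, where myofibrils meet the membrane. Xirp1 encodes Xin, an actin-binding repeat protein of the intercalated disc that marks myofibril repair. It stood at 9.89, 9.35, 10.07 and 10.04 in placebo and at 9.50, 9.89, 11.13 and 9.98 in treated replicates 1 to 4. DJ-1 replicate 3 lay 1.07 above the next heart, the fourth largest gap of all genes on that array, and the other treated hearts lay within the placebo range. The difference was 0.29 (SE 0.29, 95% confidence interval -0.35 to 0.93, limma adjusted p = 0.88) and -0.04 without DJ-1 replicate 3.

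On DJ-1 replicate 3 the genes with larger gaps than Xirp1, named here after their values were seen, were Otud1 (1.87), Abra (1.33) and Egr2 (1.19), and Nr4a2 followed with 1.01. Abra encodes a sarcomere-linked activator of serum response factor signalling, and Egr2 and Nr4a2 are immediate early transcription factors. Abra was at 10.86 there and between 8.52 and 9.53 in the other hearts. Xirp2, the relative of Xirp1, was also highest there, at 10.67, and differed between groups by 0.03 (SE 0.15). Smpx, a small costamere protein, was steady, at 11.40 ± 0.11 in placebo and 11.36 ± 0.04 in treated hearts (SD, n = 4 each).

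The members' highest and lowest values were spread unevenly over the hearts. DJ-1 replicate 3 held the highest value of 15 of the 41 members, where it held that of 13.4% of all genes, and DJ-1 replicate 4 held the lowest value of 14, where it held that of 15.5% of all genes. Placebo replicate 2 held the lowest value of 11 members (14.2% of all genes), among them Acta1, Xirp1, Csrp3, Ldb3 and Cmya5. The 15 members highest in DJ-1 replicate 3 included Acta1, Xirp1, Xirp2, Flnc, Csrp3, Ldb3, Lmod2, Mypn, Nexn and Actn2, and only Tcap and Myoz2 were lowest there. Placebo replicate 4 held the highest value of 9 members (15.3% of all genes). They were the thick filament genes Myh6, Myl2, Mylk3, Mybpc3, Myom2 and Ttn and the thin filament genes Tnnt2, Tnni3 and Lmod3. Some of these leads were narrow, as for Myh6 (12.99, with at most 12.97 elsewhere) and Tnnt2 (13.68, with at most 13.67).

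Both ends of the range came from the treated hearts with the highest scores on the first principal component, which lay on the same side of it. The median member deviation was 0.09 in replicate 3 and -0.10 in replicate 4, while the medians over all genes were 0.01 and 0.02. The within-group SD was under 0.1 for 14 members and above 0.3 for 7 (Myl7, Myl4, Xirp1, Acta1, Myot, Flnc and Ttn). Its median was 0.16 over the members and 0.15 over the 13693 genes above background.

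**Figure D5:**
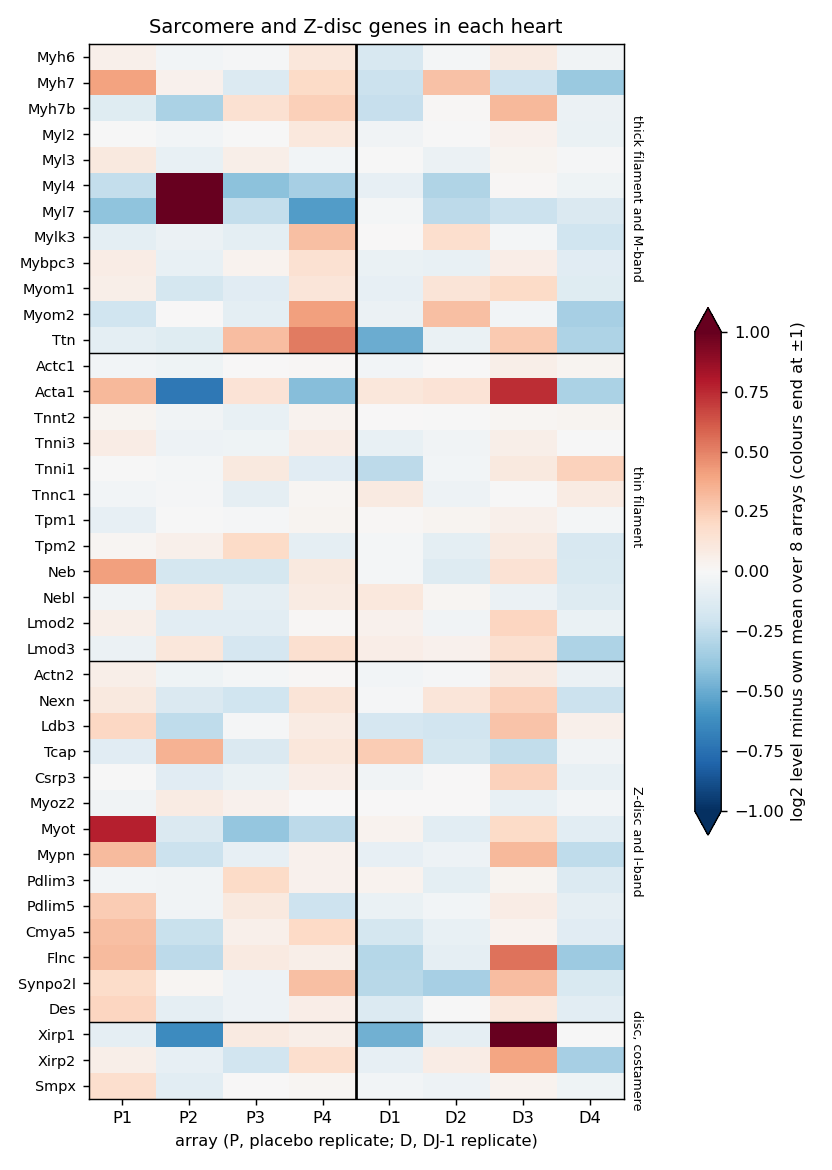
Each member's log2 level minus its own mean over the 8 arrays (colour scale ends at ±1), by array and role. The darkest cells include the high values of Myl4 and Myl7 in placebo replicate 2, of Myot in placebo replicate 1 and of Acta1 and Xirp1 in DJ-1 replicate 3, and the low values of Acta1 and Xirp1 in placebo replicate 2; most genes of the adult core, such as Actc1, Tnnt2 and Myl2, hardly vary.

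A further 52 genes of the same structures that are not members were listed by role, and 50 were measured. In the limma fit 0 had an adjusted p under 0.05, as did 0% of all genes. Likewise 0 had an unadjusted p under 0.05, where 5.99% of all genes did. Of the 50, 27 had a higher and 23 a lower mean in treated hearts, and the median difference was 0.00. They cover M-band partners and ubiquitin ligases, thin filament caps, other Z-disc proteins and the assembly and transcription factors of muscle. Gata4, a cardiac transcription factor, had the smallest p, with a difference of -0.28 (SE 0.13, adjusted p = 0.824). Next came the LIM proteins Pdlim1 with 0.21 (SE 0.11) and Pdlim7 with 0.17 (SE 0.09), at the same adjusted p. The stretch-induced Ankrd1, a titin-binding ankyrin repeat protein, differed by -0.04 (SE 0.14), and Trim63, the ubiquitin ligase MuRF1 of the M-band, by -0.18 (SE 0.15). DJ-1 replicate 3 held the highest value of 14 of the 50 and placebo replicate 1 that of 13, where they held that of 13.4% and 13.7% of all genes.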

How the data were processed

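Total RNA (100 ng, RNA integrity number above 7) was labelled for Affymetrix whole-transcript arrays with 1 array a sample, per the labels' protocols. The deposited log2 values of 35556 probe sets were made by the authors with RMA, per the submitters' processing notes; neither its version nor an annotation build is given in the sources used here. Of these, 21789 carried 1 gene symbol, 1621 several and 12146 none. The Entrez identifiers of all 42 member probe sets matched the RefSeq table. No further normalization was applied. Treated and placebo samples were compared with limma 3.58.1 in R 4.3.3 (lmFit, eBayes, two-sided, no covariate), with Benjamini-Hochberg adjustment over 19938 genes, after the code was tested on simulated data. The labels number the samples of each group 1 to 4 without stating outright that each is a separate animal, so p-values measure the spread between these samples. The number of arrays limits the precision: the median SE of members was 0.11. The sample codes run through the placebo and then the DJ-1 samples, so a processing order and treatment cannot be told apart. No scan date was used here.

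The members, gene lists, isoform ratios and marker lists were chosen with earlier results of these data known. Full statistics are given by rule for the 8 members of smallest p and for 6 isoform pairs. Alternatives were other normalizations, a filter on dim genes, the mean of probe sets, other variance models, the replicate block and arrays left out. Promoter sequences are RefSeq's (GRCm38.p6), where 34 of the 41 genes had an entry; the array annotation names no build, so no other coordinate is printed.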

Additional observations from a re-analysis of the deposited data

Results flagged for a closer look

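Each member and each isoform ratio was examined within each group of 4 for a single heart far from the other 3, by the gap to the nearest heart as a share of the group's range (102 groups); chance alone marks about 1 in 20. There were 6 such cases, all among placebo hearts. In placebo replicate 2, Myl4 was at 10.40 with the other placebo hearts between 8.59 and 8.76 (share 0.907), and Myl7 was at 7.08 with the others between 4.68 and 5.0 (share 0.869). The ratios built on them stood apart in the same heart: Myl4 against Myl3 at -2.43, with the others from -4.37 to -4.21 (share 0.921), and Myl7 against Myl2 at -5.91, with the others from -8.44 to -8.01 (share 0.83). In placebo replicate 4, Mylk3 was at 10.13 with the others between 9.73 and 9.77 (share 0.889). In the same heart Myl2 was at 13.12, with the others between 12.99 and 13.01 (share 0.846).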

How the results depend on the processing

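With all 8 arrays, every normalization, dim-gene filter, probe set rule and variance model tried left 0 genes past adjusted p 0.05, 0 members with an unadjusted p under 0.05 and 0 members without overlap; the median member difference ran from -0.05 to -0.03 there. The replicate block gave the same 3 counts of 0 and a median of -0.03. Deviations of same-numbered arrays from their group means had correlations of 0.00, 0.17, 0.18 and 0.01. Arrays of different numbers ranged from -0.28 to 0.29, which spans these values, so the numbers were not taken as pairs. With 1 array left out, the genes past adjusted p 0.05 ran from 0 to 1 (Pramel27, at a mean level of 4.23, without DJ-1 replicate 3, adjusted p = 0.044), members with an unadjusted p under 0.05 from 0 to 2, members without overlap from 0 to 1 and the median from -0.06 to -0.01. The members concerned were Myot without placebo replicate 1 and Cmya5 without placebo replicate 2. The others were Myh7 without DJ-1 replicate 2, and Ttn and Synpo2l without DJ-1 replicate 3. All but Ttn then had groups without overlap. That followed from the choice of array, since the one left out had made these groups overlap. Over the fits with 1 array left out, 833 to 1480 of the 19938 genes had an unadjusted p under 0.05. How many of all genes lost their overlap was not counted for these fits. Without DJ-1 replicates 3 and 4 there was 1 member by each count, Synpo2l (-0.42), and 911 of all genes had an unadjusted p under 0.05. The isoform ratios, which were not recomputed for the 2 other variance models, gave 0 past adjusted p 0.05 in each setting run, where no single ratio could have passed; for the replicate block the smallest exact permutation p possible is 0.125.

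For the members named by rule and the ratios, signs turned as follows, the cause not being tested. Tnni1 was -0.01 with quantile normalization, -0.02 with cyclic loess and -0.14 without DJ-1 replicates 3 and 4; Actc1 was -0.02 with cyclic loess and 0.00 without DJ-1 replicates 3 and 4. Without those 2 arrays Xirp1 was -0.14, and the ratios were 0.04 for Myh7 to Myh6, -0.07 for Tnni1 to Tnni3, 0.00 for Lmod3 to Lmod2, 0.04 for Myom2 to Myom1 and 0.15 for Xirp2 to Xirp1. With 1 array left out their ranges that crossed or reached 0 were -0.04 to 0.50 for Xirp1, -0.06 to 0.10 for Tnni1, -0.05 to 0.00 for Myl2, -0.06 to 0.00 for Myl3, -0.56 to 0.24 for Myl7, -0.38 to 0.22 for Myl4, -0.03 to 0.11 for Tnni1 to Tnni3, -0.56 to 0.29 for Myl7 to Myl2, -0.36 to 0.28 for Myl4 to Myl3 and -0.14 to 0.10 for Neb to Nebl. The 23 other members were read at 2 decimals with 0.00 taken as no sign, so Actn2, at 0.00 in the main fit, could not be counted. Of the 23, 14 changed sign in at least 1 of the fits that omit a single array (to at most 0.12 in size). When DJ-1 replicates 3 and 4 were dropped 6 did (to at most 0.09). With all arrays kept 1 did: Tnnt2, at -0.02 with cyclic loess.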
